A study of Mus musculus with 4 samples.

Results

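The 4 fasted libraries of group 2 innate lymphoid cells (ILC2) from pancreatic islets used here fell into 2 pairs by the amount of exocrine pancreas RNA they held. Fasted 1 and 3 are called acinar-poor here, and fasted 4 and 5 acinar-rich. The pairs were chosen by that measured share, so every difference between them is given as a level or a range, with no test, and the acinar genes themselves are shown only as a description. The pairs are 4 of the 8 libraries used, and the other 4, whose columns are named control, were taken as the fed group, the only other treatment in the labels. All libraries carry the C57BL/6j genotype and the labelled tissue is the islet of Langerhans, with ILC2 as the labelled cell type. The length of the fast, the age of the mice and how the cells were isolated are not given in the sources used here, nor whether the libraries of a group came from separate mice. Poly(A) RNA was counted by CEL-seq2, a method that reads the 3′ end of each transcript with a barcode for the sample, so counts were not divided by gene length.

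Islets sit inside the exocrine pancreas, which is built of acinar cells. Acinar cells make digestive enzymes, mostly as inactive zymogens, and spend most of their messenger RNA on them. ILC2 are tissue lymphocytes without antigen receptors. They depend on the transcription factor GATA3, sense the alarmin IL-33 through ST2 (encoded by Il1rl1), and release IL-5, IL-13, amphiregulin and GM-CSF. Zymogen genes are known as markers of acinar cells and are no part of the ILC2 programme.

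Acinar enzyme and zymogen genes, a list of 26 genes found in the table, took 2.96% and 3.29% of counts in fasted 1 and 3 and 67.7% and 68.9% in fasted 4 and 5. None of these libraries lay between 3.29% and 67.7%. The 4 fed libraries held 41.6 to 72.5%, so each of them lay nearer to the acinar-rich pair and none of these fed libraries was acinar-poor. Library totals were 2041697 and 2546920 counts in the acinar-poor pair and 7839555 and 9366807 counts in the acinar-rich pair. Outside the acinar lists the totals were close, at 1978025 and 2458303 against 2280513 and 2551159 counts. With so much of a library taken by few genes, levels are given as counts per 1000000 (CPM) of a library size scaled by trimmed mean of M-values (TMM) factors, which ran from 0.570 to 2.11 in the fasted libraries. On that scale the CPM of a library need not add to the usual total. The precision of a CPM value rests on its counts, and 10 CPM was about 43 to 55 counts here.

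**Figure D1:**
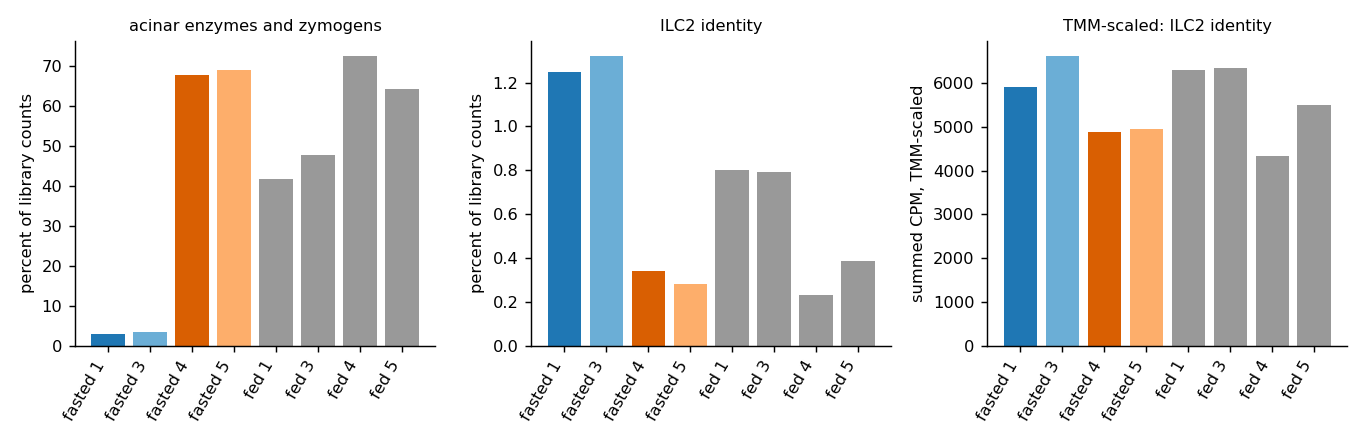
Bars give, for each of the 8 libraries, the percent of counts from acinar enzyme and zymogen genes, the percent from ILC2 identity genes, and the summed TMM-scaled CPM of the ILC2 identity genes. Blue bars are the acinar-poor and orange bars the acinar-rich fasted libraries, and grey bars are fed. ILC2 identity genes took 1.25% and 1.32% of counts against 0.341% and 0.282%, while their TMM-scaled sums lay between 4883 and 6628 CPM in all 4 fasted libraries.

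The acinar enzyme genes, on whose summed share the pairs were chosen, are described first. Cpa1, which encodes carboxypeptidase A1 (chr6:30639218-30645363, plus strand, mm10), stood at 2438 and 2752 CPM in fasted 1 and 3 and 211720 and 225628 CPM in fasted 4 and 5. Ctrb1, the chymotrypsinogen B1 gene (chr8:111686519-111691010, minus strand), stood at 2509 and 2713 CPM in fasted 1 and 3 and 140682 and 199139 CPM in fasted 4 and 5. Clps encodes colipase, the cofactor of pancreatic lipase (chr17:28558149-28560766, minus strand), and stood at 1332 and 2615 CPM in fasted 1 and 3 and 45817 and 71778 CPM in fasted 4 and 5. The trypsinogen family gene 2210010C04Rik (chr6:41030268-41035509, minus strand) was the most abundant gene of both acinar-rich libraries and of all 4 fed libraries, with 19.1% and 17.7% of counts in fasted 4 and 5. The levels of trypsinogen and elastase genes are uncertain one by one, since near-identical family members can share reads.

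Promoter sequences are shown for 4 of these enzyme genes as a description, and their regulation was not tested. The pairs were chosen on the summed share of such genes, so their shared difference between the pairs follows from that choice. The messenger RNAs of the regulators Rbpjl and Ptf1a split the same way, with Ptf1a at few counts. As background, these regulators belong to PTF1, a complex that binds a paired site made of an E box and a TC box. Each window holds 250 bases before and 50 after the gene's start, from RefSeq on GRCm38.p6. Capitals mark TTTCCC (a TC box) or CACCTG (an E box) on either strand, so the reverse strand forms read GGGAAA and CAGGTG. Cpa1 and Ctrb1 are the marker genes of the pairs, and Cel (carboxyl ester lipase) and Cela1 (elastase 1) hold both motifs.
Cpa1, chr6:30638968-30639267, plus strand: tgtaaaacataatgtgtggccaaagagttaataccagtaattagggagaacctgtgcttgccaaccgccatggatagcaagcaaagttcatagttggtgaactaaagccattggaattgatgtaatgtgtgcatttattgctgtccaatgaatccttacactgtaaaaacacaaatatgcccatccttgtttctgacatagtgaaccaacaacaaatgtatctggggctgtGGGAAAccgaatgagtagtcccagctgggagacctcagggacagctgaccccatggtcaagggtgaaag
Ctrb1, chr8:111690961-111691260, minus strand: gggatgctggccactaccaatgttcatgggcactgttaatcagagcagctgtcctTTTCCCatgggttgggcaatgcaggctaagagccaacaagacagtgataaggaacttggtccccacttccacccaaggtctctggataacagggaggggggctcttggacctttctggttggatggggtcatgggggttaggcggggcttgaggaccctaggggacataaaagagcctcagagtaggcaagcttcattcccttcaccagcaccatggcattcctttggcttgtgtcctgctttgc
Cel, chr2:28563354-28563653, minus strand: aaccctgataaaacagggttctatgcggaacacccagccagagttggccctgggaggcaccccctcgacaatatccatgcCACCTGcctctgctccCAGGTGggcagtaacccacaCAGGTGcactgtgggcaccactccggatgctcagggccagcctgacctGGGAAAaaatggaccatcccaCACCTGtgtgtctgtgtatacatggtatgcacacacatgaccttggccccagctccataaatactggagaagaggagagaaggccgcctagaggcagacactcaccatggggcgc
Cela1, chr15:100687871-100688170, minus strand: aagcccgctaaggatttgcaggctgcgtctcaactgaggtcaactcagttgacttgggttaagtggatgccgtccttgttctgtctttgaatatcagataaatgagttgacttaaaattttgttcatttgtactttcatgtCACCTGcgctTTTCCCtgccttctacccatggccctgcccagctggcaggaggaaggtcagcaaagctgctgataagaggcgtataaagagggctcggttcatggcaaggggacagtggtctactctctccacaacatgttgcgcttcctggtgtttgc

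Of the 23 enzyme genes that passed the filter on low values, 18 had a promoter in the table. CACCTG was present in 11 of the 18 (61.1%) and in 20.0% of 27025 promoters of the same length. TTTCCC was present in 6 of the 18 (33.3%) and in 25.2% of all promoters. Both motifs together occurred in 4 of the 18 (22.2%) and in 4.88% of all. These are matches of letters in a short window and say nothing about binding.

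All 23 enzyme genes, 16 granule and accessory genes and 3 acinar transcription factor genes that passed the filter were at least 2-fold higher in both acinar-rich libraries, as the choice of libraries fixes. The filter asked for at least 5 CPM in at least 2 of the 4 fasted libraries, and it kept 5974 of 15835 genes. A gene is called 2-fold apart here when the lower value of one pair was at least 2-fold the higher value of the other, with values as log2 CPM and a prior count of 2 added. In all, 353 of the 5974 genes (5.91%) were called in the acinar-rich direction and 55 (0.921%) in the acinar-poor direction. The median difference over all 5974 genes was 0.06 (log2, acinar-poor minus acinar-rich), with quartiles of -0.41 and 0.46. On plain library totals that median shifted by 1.67 towards the acinar-poor pair, and on totals of the ILC2 identity list by -0.34, so modest differences turn round with the scale. Just inside the 2-fold limit were Pkm at a gap of 1.01 and Mgll at -1.01, and just outside it were Mrgpre at 0.998 and Creg1 at -0.999.

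**Figure D2:**
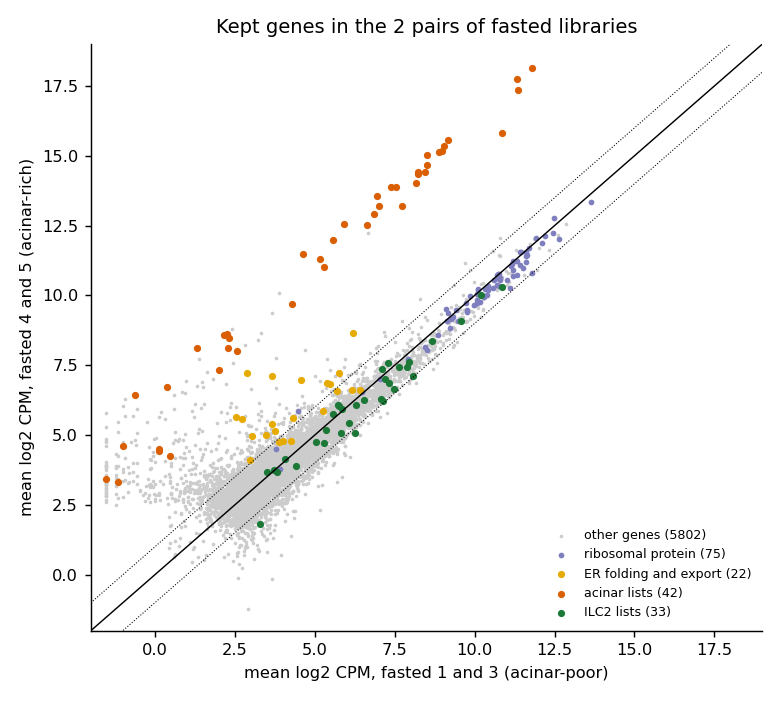
Each point is 1 of the 5974 kept genes, with its mean log2 CPM (TMM-scaled, prior count 2) in fasted 1 and 3 on the x axis and in fasted 4 and 5 on the y axis. The solid line marks equal levels and dotted lines a 2-fold difference. The 42 acinar genes form a band far above the line, the endoplasmic reticulum genes lie between that band and the line, and ILC2 and ribosomal protein genes lie along it.

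Among the acinar genes the ratio between the pairs was not uniform. Pnliprp2, a pancreatic lipase-related gene, differed by -6.66 (log2) and Cpa1 by -6.40, while Clps differed by -4.94 and the phospholipase gene Pla2g1b by -5.46. Within the enzyme counts alone, Clps made up 9.47% and 15.9% against 4.72% and 5.94%, and Pla2g1b 1.42% and 1.38% against 0.854% and 0.878%. Clps therefore took a larger part of the small acinar signal in fasted 1 and 3 than of the large one in fasted 4 and 5. Cpa1 took 17.3% and 16.7% against 21.8% and 18.7% and Ctrb1 17.8% and 16.5% against 14.5% and 16.5%, so the leading proteases kept similar places.

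Granule and accessory genes followed the enzymes. Reg3d, a secreted C-type lectin of the Reg family, stood at 2.09 and 2.17 CPM in fasted 1 and 3 and 282 and 273 CPM in fasted 4 and 5. Zg16, a zymogen granule membrane protein gene, stood at 279 and 326 CPM in fasted 1 and 3 and 18213 and 26131 CPM in fasted 4 and 5. Dmbt1, a secreted scavenger receptor gene, stood at 25.6 and 24.0 CPM in fasted 1 and 3 and 2986 and 2680 CPM in fasted 4 and 5. None of these overlapped between pairs, and the spread within each pair was under 1.5-fold.

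The acinar transcription factors were scarcer than the enzymes and split the same way. Rbpjl, the subunit of the PTF1 complex restricted to acinar cells, had 1, 2, 515 and 417 counts in fasted 1, 3, 4 and 5, or 0.232 and 0.394 CPM against 94.2 and 78.0 CPM. Bhlha15, which encodes MIST1, a regulator of secretory cell structure, had 0.930 and 1.18 CPM against 18.1 and 19.7 CPM. Gata4 was at 0 counts in both acinar-poor libraries and at 12.1 and 8.98 CPM in the acinar-rich pair. Ptf1a had 0, 0, 41 and 13 counts and did not pass the filter.

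ILC2 identity genes differed little between the pairs once the libraries were scaled. Of 28 genes on the list, 24 passed the filter and none was called 2-fold apart in either direction. The shares called over all kept genes were 5.91% in the acinar-rich and 0.921% in the acinar-poor direction. At such shares few calls would come from any 24 genes, so nothing is read from that count. Both acinar-poor values lay above both acinar-rich values for 11 of the 24, the reverse held for 1, and 12 overlapped. Among all kept genes, 24.7% lay without overlap in the acinar-poor direction and 20.5% in the other. The list's sum was 5920 and 6628 CPM in fasted 1 and 3 and 4883 and 4945 CPM in fasted 4 and 5, and the fed libraries ran from 4330 to 6361 CPM. The median difference over the 24 genes was 0.25 (log2), beside 0.06 for all kept genes. As a percent of library totals, which includes the acinar counts, the same list took 1.25% and 1.32% against 0.341% and 0.282%. The log2 ratio of the list's sum, acinar-poor over acinar-rich, was 2.04 on library totals and 0.27 on totals without the acinar lists. The difference in percent was therefore much smaller once the acinar counts were left out of the totals. The source of the remaining difference was not tested. In a bulk library, fewer ILC2 and less RNA per ILC2 cannot be told apart.

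Gata3, the regulator that ILC2 depend on (chr2:9857078-9890034, minus strand), stood at 252 and 241 CPM in fasted 1 and 3 and 216 and 177 CPM in fasted 4 and 5. It ranked 268 and 291 in fasted 1 and 3 and 280 and 377 in fasted 4 and 5 among the kept genes of each library. Il1rl1, the IL-33 receptor gene (chr1:40429570-40465415, plus strand), stood at 114 and 213 CPM in fasted 1 and 3 and 253 and 145 CPM in fasted 4 and 5. Its lowest value was in fasted 1 and its highest in fasted 4, so the pairs overlapped, and leaving out fasted 1 turned the difference from -0.30 to 0.15 (log2). Il2rg, the common gamma chain of the IL-2 and IL-7 receptors, was the most abundant gene of the list, at 1759 and 1969 CPM in fasted 1 and 3 and 1332 and 1201 CPM in fasted 4 and 5. Il7r, the IL-7 receptor alpha chain, was the 1 member with both acinar-rich values above both acinar-poor values, at 53.9 and 54.9 CPM against 69.7 and 62.9 CPM.

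Among the ILC2 identity genes that passed the filter, the widest gaps were those of Tnfrsf18, Il2rb and Icos. Tnfrsf18, which encodes GITR, stood at 179 and 179.6 CPM in fasted 1 and 3 and 93.7 and 109 CPM in fasted 4 and 5, a gap of 0.72 (log2). Il2rb, the IL-2 receptor beta chain, stood at 57.7 and 56.1 CPM against 30.7 and 37.1 CPM, and the costimulator gene Icos at 314 and 235 CPM against 174 and 109 CPM. All of these stayed under 2-fold between the nearest values of the pairs. Klrg1, an inhibitory receptor of mature ILC2, overlapped at 387 and 427 CPM against 249 and 430.5 CPM, as did Thy1 at 1007 and 1363 CPM against 871 and 1243 CPM. Id2, a regulator of all innate lymphoid cells, stood at 264 and 213 CPM against 190.0 and 156 CPM. Rora, another ILC2 regulator, had 0, 0, 1 and 0 counts in the 4 libraries, too few to compare, and the transcription factor gene Zbtb16 had 0, 0, 10 and 2 counts and did not pass the filter.

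**Figure D3:**
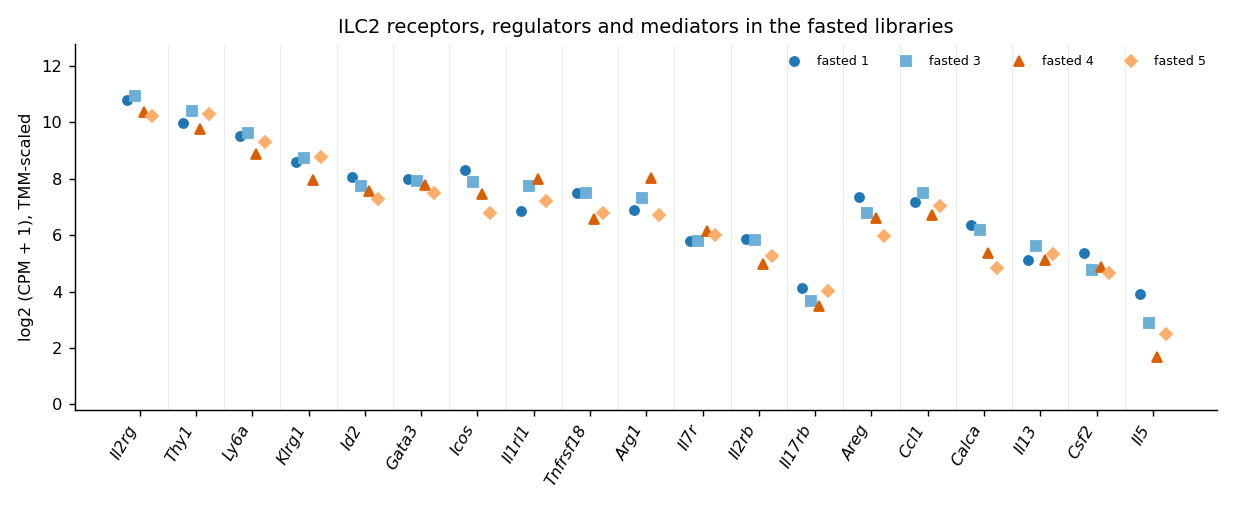
Points give log2 (CPM + 1), TMM-scaled, of 19 ILC2 genes in each of the 4 fasted libraries, with blue for acinar-poor and orange for acinar-rich. The 4 libraries lie close together for most genes, with Gata3 between 177 and 252 CPM, and Calca and Il5 are the genes plotted whose pair means lie farthest apart.

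Effector genes gave a similar picture. Of 18 list members in the table, 9 passed the filter and none was called 2-fold apart. Over all kept genes 5.91% were called in the acinar-rich and 0.921% in the acinar-poor direction, so nothing is read from that count. Of the 9, 4 lay without overlap in the acinar-poor direction (24.7% of all kept genes) and 5 overlapped. Calca, which encodes the neuropeptide CGRP, had the widest gap at 80.2 and 71.5 CPM in fasted 1 and 3 and 40.2 and 27.7 CPM in fasted 4 and 5. Il5, the eosinophil growth factor, stood at 13.9 and 6.30 CPM in fasted 1 and 3 and 2.19 and 4.68 CPM in fasted 4 and 5, from 60, 32, 12 and 25 counts in fasted 1, 3, 4 and 5. Areg, which encodes the tissue repair factor amphiregulin, stood at 162 and 109.7 CPM against 96.9 and 61.8 CPM. Il13, the type 2 cytokine that acts on epithelium and macrophages, overlapped at 33.7 and 48.2 CPM against 33.8 and 39.3 CPM, and so did Csf2 (GM-CSF) at 39.8 and 26.4 CPM against 28.4 and 24.5 CPM. Il4 had 5, 3, 18 and 2 counts, and its highest value was in fasted 4.

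Ratios within the ILC2 list need no library scaling and gave the same order for Calca. Per 1000 counts of ILC2 identity genes, Calca had 13.5 and 10.8 against 8.24 and 5.60 counts, and the fed libraries had 2.22 to 5.66. Il5 had 2.36 and 0.951 against 0.450 and 0.946 counts per 1000, so fasted 3 and fasted 5 were level on that measure and fasted 1 stood above the other fasted libraries. Il13 had 5.69 and 7.28 against 6.93 and 7.95 and lay below 3 of the 4 fed libraries, which ran from 3.27 to 18.7. Areg had 27.3 and 16.5 against 19.9 and 12.5, with overlapping pairs. Gata3 had 42.6 and 36.4 against 44.2 and 35.9, also overlapping.

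Lymphocyte activation and signalling genes were higher more often in the acinar-poor pair. Of the 16 that passed the filter, 12 lay without overlap in the acinar-poor direction and 2 in the other, with a median difference of 0.55 (log2), and 24.7% of all kept genes lay without overlap in that direction. Nfkbid, a nuclear inhibitor of NF-kappa-B, stood at 3241 and 2748 CPM against 1492 and 1914 CPM. Nfkbia, the cytoplasmic inhibitor induced by the same pathway, stood at 2481 and 1877 CPM against 1341 and 1502 CPM. Both were higher in the acinar-poor pair by less than 2-fold between the nearest values. Pdcd1, which encodes the checkpoint receptor PD-1, was called 2-fold apart at 69.3 and 18.1 CPM in fasted 1 and 3 and 6.58 and 3.18 CPM in fasted 4 and 5, with the fed libraries at 3.83 to 13.2 CPM. Socs3, a feedback inhibitor of cytokine signalling, was called in the other direction at 1.86 and 3.15 CPM in fasted 1 and 3 and 43.7 and 28.4 CPM in fasted 4 and 5. Tnfrsf9, the 4-1BB gene, stood at 17.9 and 14.2 CPM against 8.41 and 3.74 CPM, and the selectin ligand gene Selplg at 288 and 274 CPM against 139.6 and 158 CPM.

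Immediate early genes were less uniform. Of 16 genes, all passed the filter and none was called 2-fold apart. Over all kept genes 5.91% were called in the acinar-rich and 0.921% in the acinar-poor direction, so nothing is read from that count. Without overlap lay 7 in the acinar-poor and 3 in the acinar-rich direction, beside 24.7% and 20.5% of all kept genes, and 6 overlapped. Egr1 stood at 252 and 176 CPM against 117 and 105 CPM and Junb at 2431 and 1770 CPM against 1175 and 1472 CPM, both higher in the acinar-poor pair. Jun, of the same AP-1 family as Junb, stood at 369.9 and 363 CPM against 635 and 497 CPM, higher in the acinar-rich pair, though on library totals that difference turned from -0.62 to 1.08 (log2). Jund, the most abundant of them, overlapped at 7193 and 7644 CPM against 4720 and 7513 CPM.

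Antigen presentation and macrophage genes did not follow the pairs. The list's sum was 901 and 277 CPM in fasted 1 and 3 and 527 and 663 CPM in fasted 4 and 5, so the highest and the lowest value both came from acinar-poor libraries. Cd74, the invariant chain of MHC class II, stood at 148 and 20.5 CPM in fasted 1 and 3 and 29.8 and 38.6 CPM in fasted 4 and 5. H2-Eb1, an MHC class II beta chain gene, had 649, 0, 2 and 128 counts in fasted 1, 3, 4 and 5, and its partners H2-Ab1 and H2-Aa stood at 120.4 and 6.10 CPM against 5.67 and 15.7 CPM and at 81.8 and 1.18 CPM against 2.01 and 10.3 CPM. Fasted 1 was the highest library for each of these, and fasted 5 came next. The macrophage growth factor receptor gene Csf1r had 50, 0, 0 and 0 counts, Lyz1 had 133, 1, 6 and 0 counts and C1qb had 161, 13, 18 and 4 counts. These macrophage genes were highest in fasted 1, whereas other myeloid genes of the list were near 0 in every fasted library, with Lyz2 at 0, 0, 0 and 2 counts, Tyrobp at 2, 0, 0 and 1 counts and Cd68 at 3, 0, 0 and 2 counts. Of 30 members in the table, 11 passed the filter, 2 lay without overlap in each direction and 7 overlapped, near the shares of 24.7% and 20.5% over all kept genes. Leaving out fasted 1 moved the log2 ratio of the summed level from -0.01 to -1.10. In fasted 4 and 5 that sum was made up mostly of Cst3, described below.

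Within the myeloid list 1 of the 11 kept genes, Fcer1g, was called higher in both acinar-poor libraries, beside 0.921% of all kept genes. It passed the filter through the acinar-poor pair alone, so nothing is read from that count. Fcer1g encodes the signalling gamma chain of Fc receptors (chr1:171229572-171234365, minus strand), and it stood at 26.0 and 5.71 CPM in fasted 1 and 3 and 0.549 and 0.561 CPM in fasted 4 and 5. The fed libraries ran from 3.01 to 25.4 CPM, so they overlapped the acinar-poor pair and lay above the acinar-rich pair. Cst3, the cystatin C gene that many cell types express, was higher in the acinar-rich pair at 152 and 139.6 CPM against 297 and 478 CPM. On library totals its log2 difference turned from -1.37 to 0.33.

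Stromal genes set fasted 3 apart from fasted 1. The stromal and endothelial list summed to 21.4 and 133 CPM in fasted 1 and 3 and 73.5 and 35.7 CPM in fasted 4 and 5. Col3a1, a fibrillar collagen gene, had 7, 137, 22 and 2 counts, and Dcn, the decorin gene of fibroblasts, had 0, 94, 37 and 0 counts. Col1a2 had 6, 73, 0 and 0 counts. The endothelial genes Plvap and Flt1 had 0, 2, 17 and 16 counts and 0, 0, 10 and 4 counts, so they were higher in the acinar-rich pair in contrast to the collagens. Without fasted 3 the log2 ratio of the stromal sum turned from 0.50 to -1.35.

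Insulin transcripts also singled out fasted 3. Ins1 had 0, 51, 0 and 0 counts and Ins2 had 4, 73, 2 and 1 counts, equal to 0.930 and 14.4 CPM of Ins2 in fasted 1 and 3 and 0.366 and 0.187 CPM in fasted 4 and 5. The glucagon gene Gcg had 0, 0, 2 and 0 counts. Hormone transcripts were therefore at or near 0 in both acinar-rich libraries. Ttr, the transthyretin gene that islet cells are known to express, did the opposite, at 0 counts in both acinar-poor libraries and 72.4 and 42.3 CPM in fasted 4 and 5, at least 179.9-fold higher against a floor of 3 counts over the pair. Cpe, a prohormone processing enzyme gene, was likewise at 0 in the acinar-poor pair and at 7.87 and 8.61 CPM, and Ero1lb, an oxidase of the endoplasmic reticulum in secretory cells, stood at 2.56 and 0.985 CPM against 156 and 93.8 CPM. The islet genes that lay on the acinar-rich side were thus not the hormone genes. Of 18 list members in the table, 5 passed the filter, and 3 of these were called in the acinar-rich direction and none in the other, beside 5.91% and 0.921% of all kept genes. Ttr, Cpe and Ero1lb passed the filter through the acinar-rich pair alone, so nothing is read from that count.

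**Figure D4:**
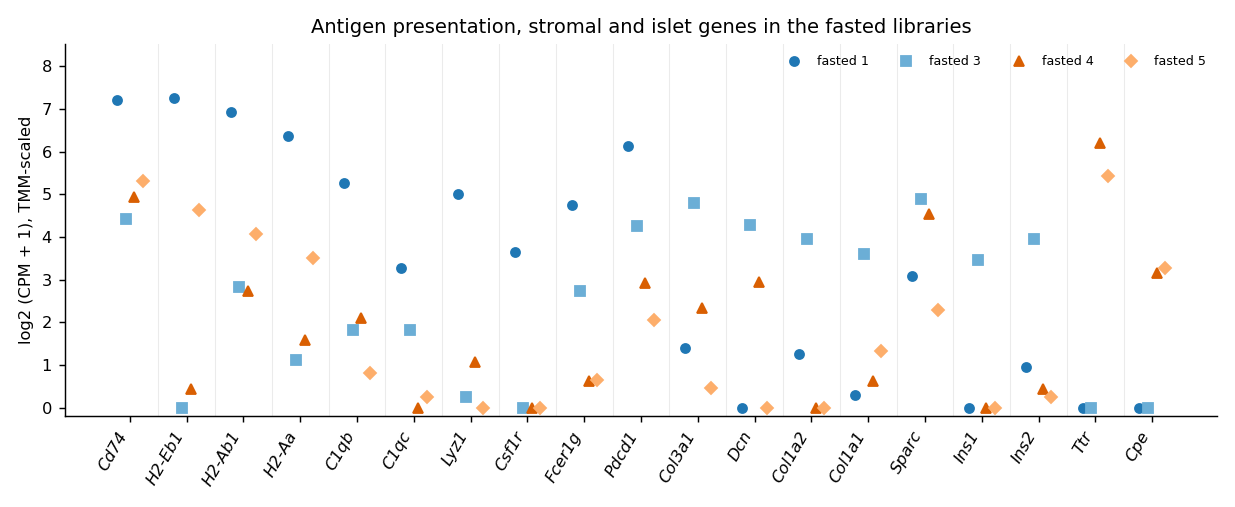
Points give log2 (CPM + 1), TMM-scaled, of 19 antigen presentation, checkpoint, stromal and islet genes in each fasted library, with blue for acinar-poor and orange for acinar-rich. MHC class II genes are highest in fasted 1, collagen and insulin genes in fasted 3, and Ttr and Cpe are at 0 in both acinar-poor libraries.

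Markers of other lymphocytes were low. The T cell list summed to 86.3 and 71.1 CPM against 75.4 and 80.1 CPM, carried by Cd3g at 42.5 and 47.3 CPM against 54.3 and 45.9 CPM and Lef1 at 30.7 and 16.7 CPM against 13.0 and 24.5 CPM, and the fed libraries summed to 41.5 to 57.9 CPM. The T cell sums overlapped between the pairs. The list of natural killer, ILC1 and ILC3 genes summed to 73.9 and 58.3 CPM against 36.6 and 64.0 CPM. The B cell list summed to 3.49 and 3.15 CPM against 6.58 and 11.8 CPM, so it was higher in the acinar-rich pair at a level of few counts, with Cd79a at 0, 0, 0 and 26 counts. On library totals the log2 ratio of the B cell sum turned from -1.47 to 0.27. The mast cell, basophil and eosinophil list summed to 7.67 and 8.07 CPM against 8.60 and 1.31 CPM, with no member past the filter.

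Ductal and general epithelial genes lay with the acinar genes. The ductal list summed to 38.8 and 31.9 CPM in fasted 1 and 3 and 886 and 1047 CPM in fasted 4 and 5, and 5 of its 7 kept genes were called in the acinar-rich direction (5.91% of all kept genes). Krt8 and Krt18, keratins of simple epithelia that acinar cells also express, stood at 3.25 and 2.36 CPM against 149 and 157 CPM and 0.930 and 0.591 CPM against 40.2 and 61.6 CPM. Sox9, a regulator of duct cells, was at 0 counts in both acinar-poor libraries and at 32.2 and 5.80 CPM in fasted 4 and 5. Krt8, Krt18 and Sox9 passed the filter through the acinar-rich pair alone, so nothing is read from the count of called genes. The duct channel gene Cftr had 4, 0, 0 and 0 counts, and Krt19 had 1, 1, 25 and 15 counts.

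Genes for protein folding and export by the endoplasmic reticulum were higher in the acinar-rich pair on the TMM scale. The list summed to 613 and 681 CPM in fasted 1 and 3 and 2121 and 1850 CPM in fasted 4 and 5, and 21 of its 22 kept genes lay without overlap in that direction, 10 of them at least 2-fold apart, beside 20.5% and 5.91% of all kept genes. On library totals the log2 ratio of the sum turned from -1.62 to 0.06. Sel1l, a subunit of the ubiquitin ligase that clears misfolded proteins, stood at 6.04 and 8.27 CPM against 219.9 and 104 CPM. Edem1, a lectin of the same disposal pathway, stood at 12.6 and 12.2 CPM against 154 and 124 CPM, and the translocon-associated gene Ssr4 at 73.9 and 72.7 CPM against 408 and 391 CPM. Calr, the chaperone calreticulin that all cells express, overlapped at 76.95 and 93.3 CPM against 115 and 84.6 CPM. Within the acinar-rich pair the list's sum was higher in fasted 4, whereas the acinar enzyme sum was higher in fasted 5. Which cells these transcripts came from was not tested.

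Stress response genes were mixed. In the integrated stress response list 13 genes passed the filter, 5 were called in the acinar-rich direction and none in the acinar-poor direction, beside 5.91% and 0.921% of all kept genes. Nupr1, a stress-induced nuclear protein gene, stood at 5.58 and 14.8 CPM against 326 and 344 CPM, and Asns, the asparagine synthetase gene, at 0.232 and 1.97 CPM against 50.5 and 62.0 CPM. Asns passed the filter through the acinar-rich pair alone, so nothing is read from the count of called genes. Atf4, the central factor of the pathway, stood at 43.2 and 46.3 CPM against 49.2 and 47.5 CPM, so the pairs were almost level. Cebpb and Ppp1r15a went the other way without reaching 2-fold, at 918 and 542 CPM against 263 and 395 CPM and 558 and 556 CPM against 278 and 406 CPM. Chac1, a glutathione-degrading enzyme gene, was low in all 4 fasted libraries at 0.697 and 0.394 CPM against 12.6 and 3.56 CPM, and the fed libraries ran from 34.2 to 100.1 CPM. Among 11 kept heat shock genes, Hspb1 stood at 0.232 and 13.6 CPM against 154 and 72.4 CPM and was called in the acinar-rich direction, and Hsf1, the heat shock regulator, at 32.5 and 21.1 CPM against 8.96 and 9.36 CPM and was called in the acinar-poor direction.

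The ribosomal protein list, which reports on the translation machinery, made up 29.0% and 30.4% of counts in fasted 1 and 3 and 7.28% and 8.91% in fasted 4 and 5. On the TMM scale their sums overlapped, at 137780 and 152428 CPM against 104357 and 156284 CPM. Of 75 kept genes, 17 lay without overlap in the acinar-poor direction and 3 in the other, beside 24.7% and 20.5% of all kept genes, so the first count is near the background. In this list Rps27l was the 1 gene called 2-fold apart, beside 5.91% of all kept genes called in its direction. It stood at 21.4 and 22.2 CPM against 52.7 and 64.9 CPM. Rpsa, the laminin receptor homologue of the small subunit, had the widest gap in the acinar-poor direction at 3654 and 3471 CPM against 1682 and 1887 CPM. Mitochondrially encoded genes leaned to the acinar-rich pair, with 8 of 15 kept genes without overlap in that direction and none in the other (20.5% and 24.7% of all kept genes), but on library totals the log2 ratio of their sum turned from -0.59 to 1.06.

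The 55 genes called in the acinar-poor direction were mostly of low abundance, with a median of 8.996 CPM over the fasted libraries against 15.4 CPM for all kept genes. Of these, Zfp606, Tgfb1, Tbxa2r, Ckb and Gba2 passed the filter through the acinar-poor pair alone. The levels and GC content of the set are therefore given as a description only. Zfp606, a zinc finger gene (chr7:12478293-12496235, plus strand), had the widest gap, at 6.51 and 7.88 CPM in fasted 1 and 3 and 0.183 and 0 CPM in fasted 4 and 5, from 28, 40, 1 and 0 counts. Tgfb1, the cytokine TGF-beta 1, stood at 11.4 and 10.8 CPM against 2.56 and 0.749 CPM. Tbxa2r, the thromboxane receptor gene, stood at 8.83 and 13.2 CPM against 2.74 and 1.497 CPM, and Dcaf15, a substrate receptor of a ubiquitin ligase, at 73.5 and 35.6 CPM against 10.4 and 8.98 CPM. Rasl11a, a small GTPase gene, stood at 47.7 and 29.3 CPM against 9.33 and 8.61 CPM, Ckb, the brain-type creatine kinase, at 19.8 and 13.6 CPM against 3.84 and 3.18 CPM, and Gba2, a glucosylceramidase, at 7.44 and 6.69 CPM against 1.83 and 1.497 CPM. Gaps of at least 4-fold were seen for 3 of the 55 genes, Zfp606, Fcer1g and Wdr85. Wdr85, Ahdc1, Ccdc85b and Madd completed the 12 widest with gaps of 2.18, 1.92, 1.76 and 1.63 (log2). Median GC content of the longest annotated transcript was 56.0% for the 50 of the 55 with a match, beside 51.0% over all kept genes and 51.4% for the genes called in the other direction. Fed values of all 4 libraries lay below the nearer acinar-poor value for 24 of the 55 genes (43.6%), a count that the choice of these genes also favours.

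In the acinar-rich direction 311 of the 353 called genes were on no acinar list. The widest gaps among these included Ttr, the potassium channel gene Kcnk1 at 0 counts against 43.2 and 34.8 CPM, and Azgp1, a secreted zinc-binding glycoprotein gene, at 0 counts against 29.4 and 28.1 CPM. Cpn1, a carboxypeptidase N subunit gene, stood at 0.232 and 0 CPM against 41.9 and 45.9 CPM. Derl3, a retrotranslocation channel of secretory cells, stood at 0 and 0.394 CPM against 52.5 and 81.4 CPM. Hamp2, a hepcidin family gene, stood at 6.04 and 4.13 CPM against 381 and 520.1 CPM, and Cbs, the cystathionine beta-synthase gene, at 0.465 and 0 CPM against 56.3 and 47.5 CPM. Slc6a9, a glycine transporter gene, stood at 0.232 and 0 CPM against 31.8 and 37.1 CPM. Amy2b and Klk1b11 belong to pancreatic amylase and kallikrein families, were outside the lists as written, and were at 0 counts in both acinar-poor libraries against 29.3 and 20.2 and 20.1 and 36.7 CPM. In all, 41 of the 353 were at 0 counts in both acinar-poor libraries, and 219 had a gap of at least 4-fold.

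The fed libraries took no part in choosing the pairs, but the genes were chosen for low acinar-poor values, which favours fed values above them, so the shares are given as a description only. For 257 of the 353 genes (72.8%), and for 215 of the 311 outside the acinar lists (69.1%), all 4 fed values were above the higher acinar-poor value. Over the 1224 genes without overlap in the acinar-rich direction the share was 37.1%. Both acinar-rich fasted libraries also stood at least 2-fold above every fed library for 6 of 352 of these genes, namely Gm15441, Gsta3, Slc27a1, 1810053B23Rik, Eci3 and Tcf4. This class was defined after the values were seen. Fed 4 and 5 held 72.5% and 64.3% acinar enzyme counts, beside 67.7% and 68.9% in fasted 4 and 5, and fed 1 and 3 held less than these.

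Slc27a1, a fatty acid transport protein gene, stood at 0 and 0.788 CPM in fasted 1 and 3 and 14.6 and 16.7 CPM in fasted 4 and 5, with the fed libraries at 1.505 to 6.10 CPM. Eci3, a peroxisomal enoyl-CoA isomerase gene, was at 0 counts in both acinar-poor libraries and at 9.51 and 6.55 CPM, with the fed libraries at 0 to 3.05 CPM. Gsta3, a glutathione transferase gene, stood at 1.16 and 0 CPM against 8.41 and 7.49 CPM, and Tcf4, an E protein gene, at 0 and 0.591 CPM against 15.9 and 9.55 CPM. Per 1000000 counts of the acinar lists, 1 of the 6 kept the 2-fold distance from every fed library. This was Gm15441, with 8.09 and 9.98 in fasted 4 and 5 against 0 to 1.76 in the fed libraries.

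Other genes known to respond to fasting did not all share this pattern, and they too were picked after values were seen. Cpt1a, the carnitine shuttle enzyme of fatty acid oxidation, stood at 22.8 and 21.7 CPM in fasted 1 and 3 and 33.1 and 33.7 CPM in fasted 4 and 5, all above the fed range of 10.3 to 12.7 CPM. Plin2, a lipid droplet coat gene, overlapped between the pairs at 55.3 and 48.2 CPM against 36.6 and 49.6 CPM and was above the fed range of 19.9 to 27.6 CPM in all 4. Pdk4, an inhibitor of glucose oxidation, had 2, 0, 25 and 13 counts, and Acot1 had 0, 0, 27 and 14 counts. Angptl4, a lipoprotein lipase inhibitor gene, had 2, 3, 8 and 14 counts. The fatty acid oxidation gene Acaa2 overlapped between the pairs at 46.0 and 59.7 CPM against 59.6 and 63.8 CPM, and Acot2 stood at 9.76 and 10.04 CPM against 6.40 and 6.36 CPM. Cpt1a and Plin2 were therefore above the fed libraries in acinar-poor and acinar-rich fasted libraries. The metallothionein genes Mt1 and Mt2, which bind zinc and copper, stood at 60.2 and 170.1 CPM in fasted 1 and 3 and 5487 and 4294 CPM in fasted 4 and 5, and at 12.8 and 16.1 CPM against 1337 and 881 CPM. Their fed ranges were 568 to 2783 and 127 to 581 CPM. Klf15, a glucocorticoid-responsive factor of amino acid metabolism, was at 0 counts in the acinar-poor pair and at 11.0 and 15.3 CPM, overlapping the fed range of 1.31 to 12.9 CPM.

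**Figure D5:**
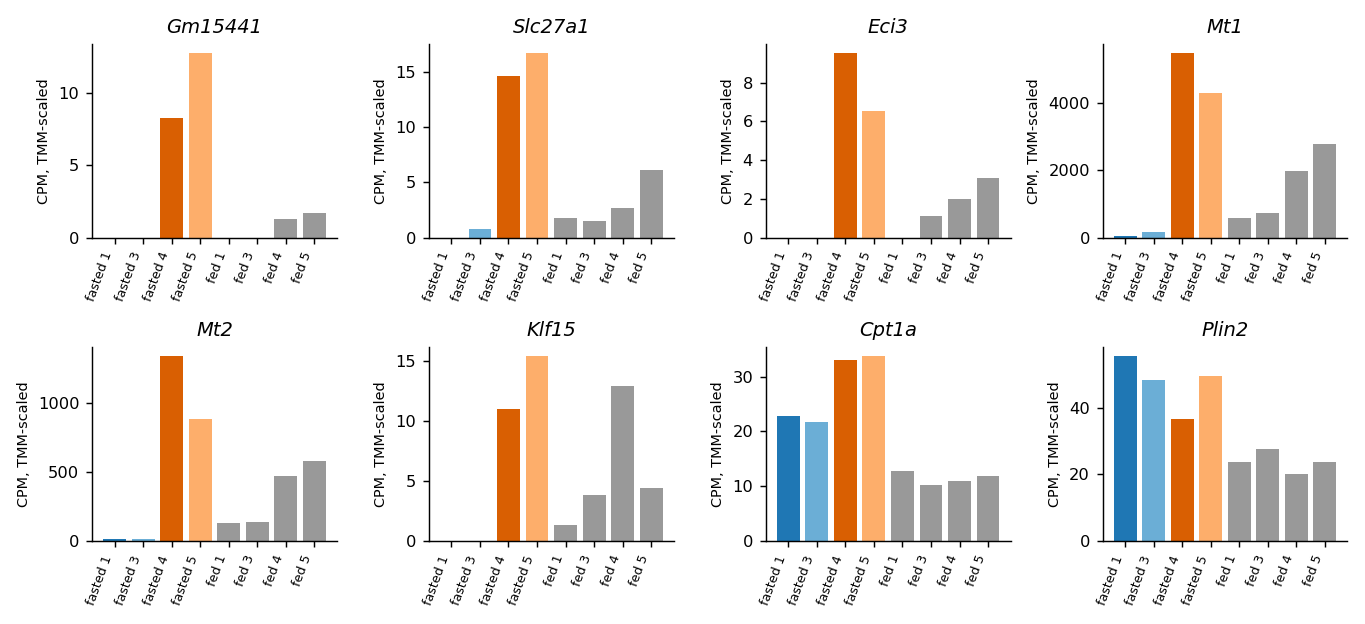
Bars give TMM-scaled CPM of 8 genes in each of the 8 libraries, with blue for acinar-poor fasted, orange for acinar-rich fasted and grey for fed. Gm15441, Slc27a1 and Eci3 are highest in fasted 4 and 5, Mt1 and Mt2 are higher there than in any fed library, and Cpt1a and Plin2 are above the fed libraries in all 4 fasted libraries.

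Libraries were also compared across the 5974 kept genes by Pearson's correlation of log2 CPM, a description in which genes are not independent. The acinar-poor pair gave 0.903 and the acinar-rich pair 0.900, while the 4 values between pairs ran from 0.750 to 0.79997. Fasted 4 was most like fed 4, at 0.937. Leaving out acinar, ribosomal protein and mitochondrial genes gave 0.884 and 0.865 within the pairs and 0.730 to 0.785 between them over 5842 genes. The filter kept genes that passed through 1 pair alone and the pairs were chosen on these counts, so nothing is read from the difference. Over the same 5842 genes fasted 3 and fed 3 gave 0.842. The most abundant genes that together took 50% of counts numbered 120 and 105 in fasted 1 and 3 and 5 and 6 in fasted 4 and 5. At an equal depth of 1797504 counts, the expected number of genes with a count was 10276 and 10008 against 10213 and 9375. At an equal depth of 1011640 counts outside the acinar lists it was 9772 and 9546 against 10909 and 10195, so the acinar-rich libraries then showed more genes.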

How the data were processed

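Whole-number counts per gene, as deposited and not normalised, were used for 8 libraries. Trizol-extracted RNA went into CEL-seq2 libraries, per the labels' protocols. Versions, read filters and the use of molecular identifiers are not given in the sources used here, but the submitters' processing notes name STAR, edgeR and mm10. Each of 4 sequencing files holds both treatments, so treatment was read from column names, with control columns taken as fed, and 2 further columns were not used because each treatment had more columns than sequencing files. In each treatment the column left out was the one with the fewest counts. Spike-in rows (11, with 20 counts) were left out of 15835 genes.

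TMM factors came from edgeR 4.0.16 in R 4.3.3 over the 8 libraries, with levels as CPM and log2 CPM at a prior count of 2. Genes with at least 5 CPM in at least 2 fasted libraries were kept. The gap between pairs is the lower value of the higher pair minus the higher value of the lower pair. No test compared the pairs, since the pairs were chosen on these counts. The pairs, gene lists and rules were chosen with earlier results of these data known. Named genes are the marker genes of the pairs, the 12 widest gaps in each direction (and 12 outside the acinar lists), the 4 most abundant and the 3 widest-gap members of each list, and 15 fixed genes, together with others said to be picked later; 3 genes are not reported here. Of 385 list symbols 331 were in the table, 7 by an older symbol. Coordinates are from GENCODE vM21 and promoters from RefSeq. The gap counts were tested on simulated counts. Alternatives covered scaling (with DESeq2 1.42.0), filters, prior count, depth and each library left out.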

Additional observations from a re-analysis of the deposited data

Results flagged for a closer look

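Each list sum and named gene was examined over the 4 fasted libraries for 1 library far from the others, by Dixon's ratio at its usual critical value. Of 178 sets of 4 values, 15 were picked out. The usual chance rate of about 1 in 20 does not apply here, since several sets hold zeros and some genes were named for wide gaps. Fasted 1 stood high for Cd74 at 148 CPM, H2-Eb1 at 151 CPM, Cd6 at 5.35 CPM, Ccr3 at 3.95 CPM and Siglec5 at 2.79 CPM. Fasted 3 stood high for Col3a1 at 27.0 CPM, Col1a2 at 14.4 CPM, Ins1 at 10.04 CPM, Ins2 at 14.4 CPM and Penk at 2.36 CPM, and low for Kcnq1ot1 at 103 CPM. Fasted 4 stood low for Jund at 4720.5 CPM. Fasted 5 stood high for Cd79a at 4.87 CPM and Ms4a1 at 0.749 CPM, and low for the summed mast cell, basophil and eosinophil list at 1.31 CPM. Several of these rest on few counts, as with Ms4a1 at 0, 0, 0 and 4 counts.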

How the results depend on the processing

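The counts of genes moved with the scaling. The number of genes kept also changed with the scaling and the filter, from 5974 on the main settings, so it is given with the counts. On plain library totals 6509 genes were kept. Of these, 3949 were at least 2-fold higher in both acinar-poor libraries and 152 in both acinar-rich ones (55 and 353 on the TMM scale). Genes without overlap numbered 5654 and 202 (1474 and 1224 on the TMM scale). Totals without the acinar lists kept 7764 genes and gave 540 genes 2-fold higher and 1854 without overlap in the acinar-rich direction. Totals of the ILC2 identity list kept 5311 genes. They gave 12 genes 2-fold higher and 470 without overlap in the acinar-poor direction, and 2002 without overlap in the other. Without a filter, 190 and 963 of 13616 genes were 2-fold higher in the acinar-poor and acinar-rich direction, and 2659 lay without overlap in the latter. The edgeR filter kept 7700 genes and gave 83 genes 2-fold higher in the acinar-poor direction. A minimum of 10 CPM kept 4191 genes and gave 33 and 227 genes 2-fold higher, with 793 without overlap in the acinar-rich direction. TMM factors from the fasted libraries alone, DESeq2 size factors, a prior count of 0.5 and thinning to the smallest total kept all 4 counts within 1.5 times.

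Leaving out 1 library at a time leaves 3 values to separate, so the counts grow by construction. Genes 2-fold higher in the acinar-poor direction then numbered 136 to 361, and in the acinar-rich direction 450 to 634. Genes without overlap numbered 2226 to 2532 and 1831 to 2127. The log2 ratio of the ILC2 identity sum ran from 0.27 to 0.43, of the islet sum from -0.92 to -0.49 and of the myeloid sum from -1.10 (without fasted 1) to 0.60 (without fasted 3). No paired analysis was possible because the pairs are single libraries chosen within 1 group, and no comparison of the pairs comes from a test.

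As log2 ratios of the pair means, the acinar enzyme sum was -6.16, and -4.45 on library totals and -6.51 on ILC2 list totals. The islet sum was -0.72, and 0.95 and -1.07 on these scales. Its most abundant member was Gnas, at a mean log2 CPM of 8.95 in the acinar-poor and 9.33 in the acinar-rich pair. The islet sum is therefore no measure of the hormone genes, of which Ins1 and Ins2 were highest in fasted 3. The ILC2 identity sum was 0.35, and 2.04 on library totals and 0.27 without acinar counts, and its own totals set it to 0 by construction. The effector sum was 0.43, and 2.11 and 0.079. The myeloid sum was -0.01, and 1.72 on library totals. On library totals the direction also turned for the endoplasmic reticulum sum (0.064), Pdia6 (0.23), Rps27l (0.28) and mtAtp6 (0.26), because the median of all genes moved by 1.67. Among others, the B cell sum (0.27), the heat shock sum (1.03), Cst3 (0.33) and Il1rl1 (1.39) turned as well. The acinar enzyme share was 3.12%, 3.48%, 70.9% and 72.8% in fasted 1, 3, 4 and 5 over all 3 acinar lists, and 2.26%, 2.53%, 48.6% and 51.2% without 2210010C04Rik. Relative to acinar counts, a scale added after the data were seen, 1 gene and not 6 stood 2-fold above every fed library. For single genes, 1463 of 1790 alternative values moved by less than the spread within pairs. With 2 libraries a side, genes under 5 CPM rest on few counts.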

Other observations

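Kcnq1ot1, a long nuclear RNA of an imprinted locus, stood at 950.2 and 103 CPM in fasted 1 and 3 and 981 and 876 CPM in fasted 4 and 5, so fasted 3 was lowest and the other acinar-poor library lay among the acinar-rich ones. Rn45s, the ribosomal RNA precursor, stood at 995 and 473 CPM against 1297 and 508 CPM, and Neat1, another nuclear RNA, at 8.60 and 10.6 CPM against 51.8 and 21.5 CPM. Red cell transcripts were present in every library, led by Beta-s, a beta globin, at 284 and 234 CPM against 104 and 208 CPM. Fed libraries ran from 140.2 to 702 CPM of it.

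Arg1, the arginase gene that ILC2 express, was highest in fasted 4, at 118 and 159 CPM in fasted 1 and 3 and 260.3 and 104 CPM in fasted 4 and 5. Ptprc, which encodes the pan-leukocyte protein CD45, was also highest there, at 49.5 and 55.7 CPM against 114 and 40.6 CPM. The oncogene Myc lay without overlap in the acinar-rich direction at 8.60 and 18.1 CPM against 29.4 and 25.8 CPM, and the survival gene Bcl2 overlapped at 27.4 and 37.2 CPM against 49.8 and 35.7 CPM.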
